A study of Mus musculus with 12 samples.

Results

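The 10 genes described here are Apoe, Trem2, Tyrobp, Cst7, Clec7a, Lpl, Spp1, Cd9, Csf1 and Igf1, which mouse microglia raise when they enter the activated, disease-associated state. They were taken by gene symbol from 24421 symbols in the count files, and all 10 were found once and measured. Bulk RNA sequencing covered 12 mouse libraries, 3 in each of 4 groups. The tumour groups were whole tumours that grew after RCAS viruses, avian retroviral gene carriers, were injected into the brain. The virus carried the fusion YAP1-MAMLD1-dR3R1 in one group, YAP1-FAM118B in another and YAP1-TFE3 in the last, all fusions of the Hippo pathway co-activator YAP1. Fusions of YAP1 occur in human cancers, and the labels do not tell whether the dR3R1 form does. The suffix dR3R1 is not explained in the labels. The last group, called naive, was normal cortex of mice that received no injection. The labels give no strain, age, receptor transgene or infected cell type, and do not tell whether replicates were different animals. The p-values therefore measure the spread between these libraries only.

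Microglia are the resident macrophages of the brain, and most of them depend on the receptor CSF1R for survival. In mouse models of neurodegeneration and demyelination they lower the genes of the resting state and raise a shared programme of lipid handling, phagocytosis and lysosomal genes. The receptor TREM2 binds lipids and lipoproteins, signals through the adaptor TYROBP (DAP12) and the kinase SYK, and is needed in mice for the full programme. Several of the genes are also used by macrophages that enter from blood, and Apoe, Cd9, Csf1 and Spp1 are made by other cells of the brain and of tumours too.

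Total counts lay between 19850220 and 24760814 per library. Values below are CPM, a gene's counts scaled to the total of its library, with TMM factors that correct the total for composition. Levels follow the replicate numbers of the labels. A gene is said to have passed where edgeR's quasi-likelihood test gave a Benjamini-Hochberg adjusted p under 0.05 over 16364 tested genes, and ± after a log2 fold change is its standard error. YAP1-FAM118B replicate 2 and naive replicate 2 held both Xist, expressed in females, and the Y-linked gene Ddx3y, at 162 and 29.9 CPM and at 25.6 and 49.3 CPM for the genes in that order. In each other library 1 of the pair was at least 62.9 CPM and the other at most 0.434 CPM. The high one was Xist in replicate 1 of YAP1-MAMLD1-dR3R1, replicate 1 of YAP1-FAM118B and replicate 3 of naive, and Ddx3y in the rest, the 3 YAP1-TFE3 tumours among them. The labels do not tell whether animals were pooled. The tissue label of the naive libraries also reads brain tumour, against their source label of normal cortex; their summed level of 10 neuronal genes was 8454 to 13816 CPM. Over the 10 pan-myeloid markers, genes that microglia and macrophages share, the geometric mean was 270 to 425 CPM in YAP1-MAMLD1-dR3R1 tumours, 84.4 to 107 CPM in YAP1-FAM118B tumours, 50.7 to 192 CPM in YAP1-TFE3 tumours and 6.85 to 8.07 CPM in naive cortex. All 10 markers rose in all 3 kinds of tumour. In whole tissue, fewer cells of a type and less RNA per cell cannot be told apart.

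The coordinates of the genes are given on the build GRCm38.p6 from RefSeq, and the submitters' processing notes name mm10. Trem2 lies at chr17:48346401-48352276 and Tyrobp at chr7:30413782-30417582. Cst7 lies at chr2:150570415-150578944 and Clec7a at chr6:129461591-129472785. Apoe lies at chr7:19696244-19701310 and Lpl at chr8:68880555-68906932. Spp1 lies at chr5:104435111-104441053, Csf1 at chr3:107741048-107760469, Igf1 at chr10:87858265-87937047 and Cd9 at chr6:125460266-125494760. Promoter sequences of 8 of the 10 genes were matched in the RefSeq table; Lpl and Tyrobp were not. The 250 bases before the annotated start are shown for Trem2, the receptor of the pathway, for Cst7 and Clec7a, which were nearly silent in naive cortex, and for Spp1, whose levels spread widely within the tumour groups. Capitals mark matches to GGAAGT, a core bound by PU.1 and other ETS factors, and to TGANTCA. The latter is a loose form of the AP-1 element that takes any base in the middle, where the element itself has C or G.
Trem2 (chr17:48346151-48346400, plus strand): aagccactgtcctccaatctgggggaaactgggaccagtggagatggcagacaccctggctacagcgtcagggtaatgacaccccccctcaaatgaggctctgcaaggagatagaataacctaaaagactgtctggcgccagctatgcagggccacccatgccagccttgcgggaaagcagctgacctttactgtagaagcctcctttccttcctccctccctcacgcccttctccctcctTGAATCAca
Cst7 (chr2:150570165-150570414, plus strand): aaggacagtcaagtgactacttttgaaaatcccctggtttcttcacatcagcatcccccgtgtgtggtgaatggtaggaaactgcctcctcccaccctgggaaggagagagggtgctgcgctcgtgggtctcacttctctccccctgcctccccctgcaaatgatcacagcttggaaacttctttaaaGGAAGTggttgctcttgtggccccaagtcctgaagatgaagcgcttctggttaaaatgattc
Clec7a (chr6:129472786-129473035, minus strand): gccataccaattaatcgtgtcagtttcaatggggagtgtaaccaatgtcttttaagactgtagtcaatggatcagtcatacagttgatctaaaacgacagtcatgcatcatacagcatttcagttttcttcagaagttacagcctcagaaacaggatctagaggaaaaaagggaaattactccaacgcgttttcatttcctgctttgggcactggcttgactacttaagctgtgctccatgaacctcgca
Spp1 (chr5:104434861-104435110, plus strand): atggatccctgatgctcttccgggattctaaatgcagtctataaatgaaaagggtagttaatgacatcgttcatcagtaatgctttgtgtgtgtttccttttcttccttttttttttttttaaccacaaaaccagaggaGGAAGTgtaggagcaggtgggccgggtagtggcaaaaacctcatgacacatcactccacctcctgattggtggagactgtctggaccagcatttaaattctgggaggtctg
Both strands were searched, also for CACGTG, the E-box read by TFE3 and related factors, and for GGAATG, the TEAD element through which YAP1 acts. None of these motifs overlapped another in the 8 promoters. The windows searched for Apoe and Igf1, chr7:19699189-19699438 and chr10:87860861-87861110, lie inside the gene spans given above and not before their outer ends. GGAAGT stood in 2 of the 8, those of Cst7 and Spp1, and in 19.9% of all 27025 mouse promoters of that length. TGANTCA stood in 2 of 8, those of Trem2 and Igf1, and in 6.85% of all promoters. In Trem2 and in Igf1 the match read TGAATCA, with A in the middle, so neither is the strict AP-1 element. CACGTG and GGAATG stood in 0 of 8, against 6.04% and 12.6% of all promoters.

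Against naive cortex, the microglial genes were higher in each kind of tumour, most widely in the YAP1-MAMLD1-dR3R1 tumours. There 10 of 10 genes passed and were higher, where 34.4% of all tested genes were called higher. In YAP1-TFE3 tumours 9 of 10 were higher, where 40.6% of all tested genes were, and Igf1 did not pass. In YAP1-FAM118B tumours 7 of 10 were higher, where 21.3% of all tested genes were, and Apoe, Lpl and Igf1 did not pass. Cst7 and Clec7a, with 1 naive count each, were kept by the filter through the tumours alone and had to differ. Of the other 8 genes, 8 were called higher with YAP1-MAMLD1-dR3R1, 5 with YAP1-FAM118B and 7 with YAP1-TFE3. No member was called lower in any of the 3 comparisons. Of all tested genes, 28.8% were called lower with YAP1-MAMLD1-dR3R1, 8.45% with YAP1-FAM118B and 30.0% with YAP1-TFE3. Tumour and naive libraries did not overlap for 10 of the genes with YAP1-MAMLD1-dR3R1, 8 with YAP1-FAM118B and 9 with YAP1-TFE3, all higher in tumours. Over all tested genes 38.0%, 29.7% and 42.5% did not overlap and were higher, and 34.9%, 27.1% and 33.2% did not overlap and were lower. The median log2 fold change of the 10 genes was 4.66 with YAP1-MAMLD1-dR3R1, 2.89 with YAP1-FAM118B and 3.52 with YAP1-TFE3, beside 0.06, -0.05 and 0.23 over all tested genes. Without Cst7 and Clec7a, the medians of the other 8 genes were 3.55, 1.62 and 3.09 in the same order. The 3 comparisons share their naive libraries. In all 3, 7 genes were called higher, where 18.6% of all tested genes were: Trem2, Tyrobp, Cst7, Clec7a, Spp1, Cd9 and Csf1. Without the pair of libraries that held both sex-linked markers, 9, 6 and 8 of the 10 genes were called higher with YAP1-MAMLD1-dR3R1, with YAP1-FAM118B and with YAP1-TFE3, where 30.2%, 17.8% and 36.6% of all genes tested in that fit were. The directions against naive held under TMM, RLE and upper-quartile scaling and under library size alone.

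**Figure D1:**
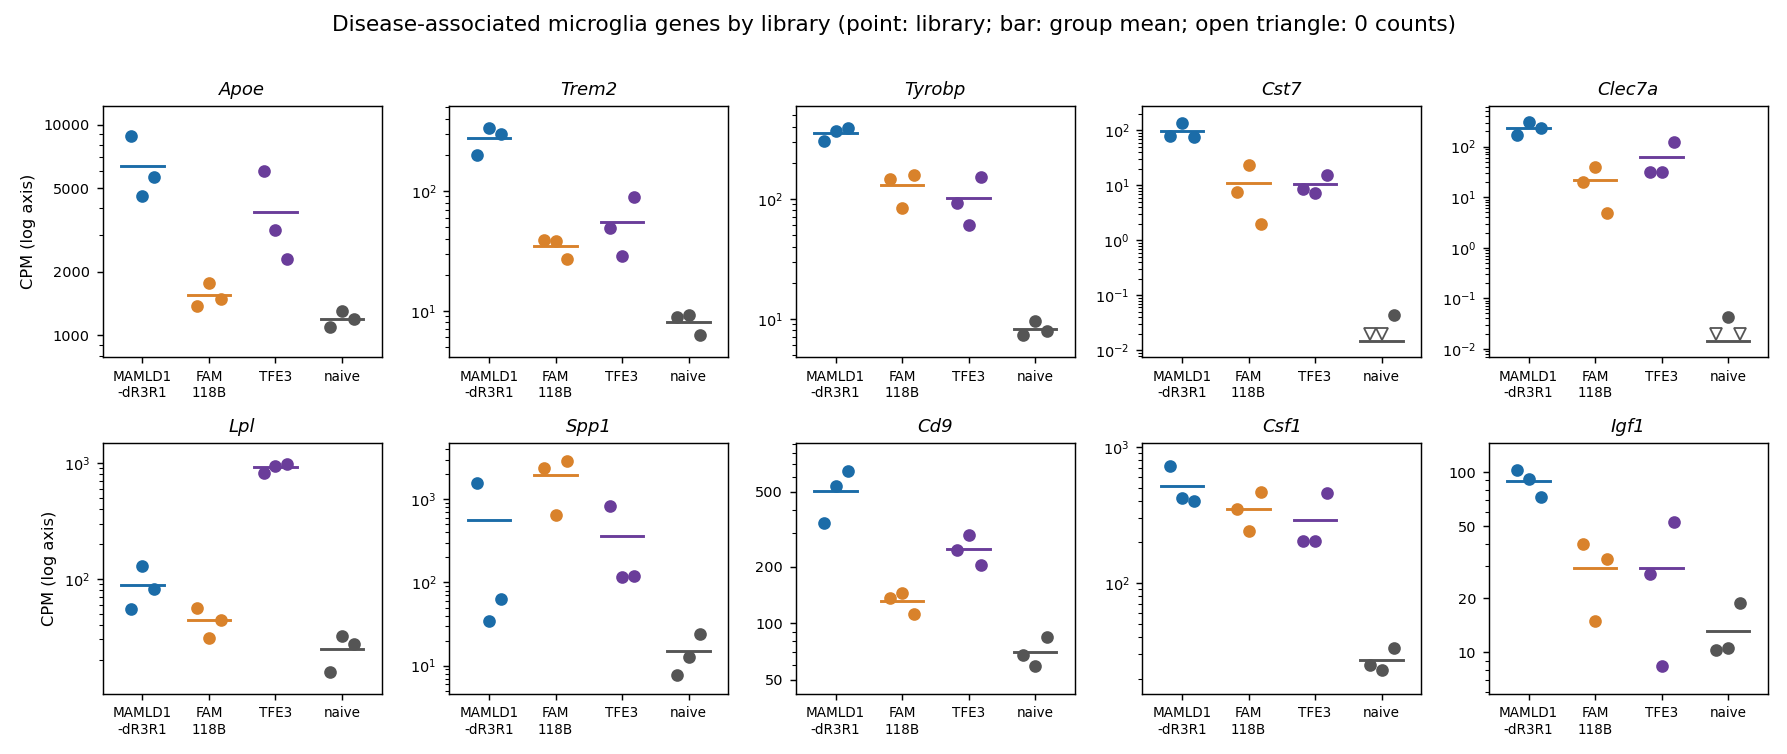
Levels of the 10 genes in CPM (log axes) in each library, with groups from left to right and a bar at each group mean; open triangles mark libraries with 0 counts, drawn at an arbitrary height. Cst7 and Clec7a have 1 count in all of naive cortex, Lpl is highest in the 3 YAP1-TFE3 tumours, and the Spp1 points of the tumours spread widely.

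Trem2 and Tyrobp, the receptor and its adaptor, rose in every tumour group. Trem2 had 198, 334 and 298 CPM in YAP1-MAMLD1-dR3R1 tumours, 38.8, 38.0 and 27.0 CPM in YAP1-FAM118B tumours, 48.8, 28.7 and 89.4 CPM in YAP1-TFE3 tumours and 8.95, 9.17 and 6.25 CPM in naive cortex. Each tumour library lay above each naive library, and the lowest YAP1-MAMLD1-dR3R1 library lay above all other tumours. Its log2 fold changes over naive cortex were 5.09 ± 0.44 (SE, adjusted p = 1.55e-05), 2.09 ± 0.39 (SE, adjusted p = 0.00288) and 2.77 ± 0.40 (SE, adjusted p = 0.00016) in that order of tumours. Tyrobp had 301, 368 and 387 CPM in YAP1-MAMLD1-dR3R1 tumours, 147, 83.7 and 157 CPM in YAP1-FAM118B tumours, 92.6, 60.1 and 152 CPM in YAP1-TFE3 tumours and 7.27, 9.59 and 7.92 CPM in naive cortex. Its changes against naive were 5.41 ± 0.39 (SE, adjusted p = 7.09e-06), 3.97 ± 0.37 (SE, adjusted p = 6.20e-05) and 3.62 ± 0.36 (SE, adjusted p = 1.84e-05). Among the YAP1-TFE3 tumours replicate 3 was the highest for both genes, as it was for the pan-myeloid markers, and without that library the YAP1-TFE3 changes were 2.09 (adjusted p = 0.000239) for Trem2 and 3.04 (adjusted p = 4.37e-05) for Tyrobp.

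The balance of the pair differed between the groups. Trem2 gave 0.657, 0.907 and 0.768 counts per Tyrobp count in YAP1-MAMLD1-dR3R1 tumours, 0.264, 0.454 and 0.172 in YAP1-FAM118B tumours, 0.527, 0.477 and 0.588 in YAP1-TFE3 tumours and 1.23, 0.956 and 0.789 in naive cortex. All 3 ratios of the YAP1-FAM118B tumours and all 3 of the YAP1-TFE3 tumours lay below every naive and every YAP1-MAMLD1-dR3R1 ratio. These ratios are a description, and Trem2 per Tyrobp was not tested. The scaled contrasts further down test Trem2 against pan-myeloid markers, which do not include Tyrobp. Further, 16 genes tied to TREM2 or Dectin-1 signalling were listed and tested, and not all of them act downstream of the receptors. Of these, 15 rose with YAP1-MAMLD1-dR3R1, 13 with YAP1-FAM118B and 14 with YAP1-TFE3 against naive, where 34.4%, 21.3% and 40.6% of all tested genes did. None of the 16 fell. Their median log2 fold changes were 4.33, 2.63 and 2.69. Plcg2, the phospholipase that relays the signal, changed by 4.84 (adjusted p = 8.66e-06), 2.84 (adjusted p = 0.000223) and 3.73 (adjusted p = 1.26e-05). Adam17, a protease that sheds TREM2 from the surface, changed by 3.08 (adjusted p = 6.74e-06), 2.08 (adjusted p = 0.000105) and 2.33 (adjusted p = 1.18e-05). Syk itself changed by 4.37 (adjusted p = 0.000124), 3.52 (adjusted p = 0.00102) and 2.67 (adjusted p = 0.00122). Between fusions, 12 of the 16 were lower with YAP1-FAM118B than with YAP1-MAMLD1-dR3R1, where 13.5% of all tested genes were. With YAP1-TFE3 11 were lower than with YAP1-MAMLD1-dR3R1, where 16.9% of all tested genes were. With YAP1-TFE3 4 were higher than with YAP1-FAM118B, a share near the 28.0% of all tested genes. The gene of a phosphoinositide 3-kinase subunit, Pik3r1, was outside the rise over naive. It passed in none of those 3 comparisons, with -0.17, -0.33 and 0.27 (adjusted p = 0.419, 0.197 and 0.2).

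Cst7 and Clec7a were all but absent from naive cortex and present in every tumour. Cst7 encodes cystatin F, an inhibitor of lysosomal cysteine proteases, and Clec7a encodes Dectin-1, a receptor for fungal glucans. Cst7 had 2055, 2886 and 1711 counts in YAP1-MAMLD1-dR3R1 tumours, 187, 566 and 43 counts in YAP1-FAM118B tumours, 175, 163 and 338 counts in YAP1-TFE3 tumours and 0, 0 and 1 counts in naive cortex. On the CPM scale this was 79.8, 139 and 75.9 with YAP1-MAMLD1-dR3R1, 7.68, 23.8 and 1.98 with YAP1-FAM118B and 8.44, 7.23 and 15.7 with YAP1-TFE3. The single naive count set the size of each change, so the ratio of pooled levels is given with its counting interval. It was 6842 (95% counting interval 1228 to 270297) with YAP1-MAMLD1-dR3R1, 809 (95% counting interval 145 to 31982) with YAP1-FAM118B and 740.0 (95% counting interval 132 to 29273) with YAP1-TFE3 over naive, a description of these pooled counts. Because the gene was kept for testing by the tumours alone, no p-value is given for it against naive.

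Clec7a showed the same separation from cortex at higher levels. It had 4476, 6331 and 5314 counts in YAP1-MAMLD1-dR3R1 tumours, 492, 944 and 104 counts in YAP1-FAM118B tumours, 654, 726 and 2610 counts in YAP1-TFE3 tumours and 0, 1 and 0 counts in naive cortex. Its ratio to naive was 16582 (95% counting interval 2976 to 655002) with YAP1-MAMLD1-dR3R1, 1565 (95% counting interval 280.4 to 61838) with YAP1-FAM118B and 4368 (95% counting interval 784 to 172568) with YAP1-TFE3. Both genes passed the filter on low counts through the tumour libraries alone, so a difference from naive was bound to be seen. Depending on the library left out, the fitted log2 change of Cst7 was 11.81 to 14.14, 7.95 to 11 and 8.39 to 10.90 in the order of tumours used above, and that of Clec7a 13.09 to 15.41, 9.32 to 11.94 and 10.53 to 13.46. The naive library that alone held the count (replicate 3 for Cst7, replicate 2 for Clec7a) gave the high ends of these ranges.

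Within the YAP1-FAM118B group both genes ran in the same order, highest in replicate 2 and lowest in replicate 3, and Cst7 was 12 times and Clec7a 8.26 times as high in the highest as in the lowest library. The pan-myeloid geometric mean of the same libraries spanned only 84.4 to 107 CPM and was lowest in replicate 2. Replicate 2 of this group is also 1 of the libraries with both sex-linked markers. Its summed level of osteoclast genes was far below that of the other 2 YAP1-FAM118B tumours, as given with Spp1, and the part of either in the result was not tested.

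Apoe and Lpl handle lipids: apolipoprotein E carries cholesterol and phospholipid, and lipoprotein lipase releases fatty acids from lipoproteins. Apoe was the most abundant gene per length in 3 of the groups, and it was already high in cortex, where astrocytes make most of it. It had 8821, 4564 and 5622 CPM in YAP1-MAMLD1-dR3R1 tumours, 1378, 1778 and 1494 CPM in YAP1-FAM118B tumours, 6053, 3149 and 2300.3 CPM in YAP1-TFE3 tumours and 1089, 1308 and 1200.2 CPM in naive cortex. All tumour libraries lay above the naive ones, but the YAP1-FAM118B libraries only by a small margin. Apoe rose by 2.40 ± 0.38 (SE, adjusted p = 0.000398) with YAP1-MAMLD1-dR3R1 and by 1.68 ± 0.37 (SE, adjusted p = 0.00229) with YAP1-TFE3, and its difference with YAP1-FAM118B, 0.37 ± 0.36 (SE, adjusted p = 0.451), did not pass. Replicate 1 was the highest YAP1-TFE3 library, and without it the change was 1.03 (adjusted p = 0.0179). A list of 10 astrocyte genes summed to 4481 to 7164 CPM in YAP1-MAMLD1-dR3R1 tumours, 2384 to 4812 in YAP1-FAM118B tumours, 1502 to 3559.8 in YAP1-TFE3 tumours and 4565 to 5613 in naive cortex; their part in the Apoe level was not tested.

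Lpl set the YAP1-TFE3 tumours apart. It had 830.0, 952 and 977 CPM there, against 54.6, 129 and 82.4 CPM in YAP1-MAMLD1-dR3R1 tumours, 56.3, 30.8 and 44.4 CPM in YAP1-FAM118B tumours and 15.6, 31.9 and 27.3 CPM in naive cortex. The lowest YAP1-TFE3 library was several times the highest of any other group, and the YAP1-FAM118B libraries overlapped the naive ones. Against naive the log2 fold change was 5.20 ± 0.41 (SE, adjusted p = 4.98e-06) with YAP1-TFE3, 1.83 ± 0.36 (SE, adjusted p = 0.00151) with YAP1-MAMLD1-dR3R1 and 0.81 ± 0.35 (SE, adjusted p = 0.105) with YAP1-FAM118B, the last not passing. With any 1 library left out, the YAP1-TFE3 change stayed at 4.76 to 5.42. Within the YAP1-TFE3 group the highest Lpl library was only 1.18 times its lowest while the pan-myeloid geometric mean ran from 50.7 to 192 CPM.

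Of the carriers and receptors of these lipids, several moved in YAP1-TFE3 tumours. Abca1, which loads cholesterol onto apolipoproteins, rose there by 3.40 (adjusted p = 4.15e-05). Lrp1, a receptor for ApoE, fell by 1.16 (adjusted p = 0.0015) and Abcg1, a cholesterol exporter, by 1.63 (adjusted p = 0.000228) on the log2 scale. Apoc1, the neighbour of Apoe in the apolipoprotein cluster, changed by 4.35 (adjusted p = 0.000701) with YAP1-MAMLD1-dR3R1, 0.88 (adjusted p = 0.347) with YAP1-FAM118B and 3.18 (adjusted p = 0.00266) with YAP1-TFE3. Gpihbp1, which anchors lipoprotein lipase to capillaries, lay at 0.0967 to 1.42, 0.210 to 2.83 and 1.06 to 4.37 CPM in the tumours and at 0 to 0.0419 CPM in naive cortex, which held 1 count in all. In the whole list of 27 receptors, carriers and partners, 19 rose and 2 fell with YAP1-MAMLD1-dR3R1, 15 rose and 0 fell with YAP1-FAM118B, and 17 rose and 5 fell with YAP1-TFE3. Of all tested genes 34.4%, 21.3% and 40.6% were called higher and 28.8%, 8.45% and 30.0% lower. The median log2 fold changes of the list were 2.92, 1.66 and 2.67.

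Spp1 encodes osteopontin, a secreted ligand of integrins and CD44. It had 1572, 34.5 and 64.0 CPM in YAP1-MAMLD1-dR3R1 tumours, 2371, 648 and 2845 CPM in YAP1-FAM118B tumours, 835, 117 and 121 CPM in YAP1-TFE3 tumours and 7.72, 12.7 and 24.2 CPM in naive cortex. Every tumour library lay above every naive one, yet replicate 1 was by far the highest in both the YAP1-MAMLD1-dR3R1 and the YAP1-TFE3 group. The highest library was 45.6 times the lowest with YAP1-MAMLD1-dR3R1, 4.39 times with YAP1-FAM118B and 7.16 times with YAP1-TFE3. Its log2 fold changes over naive cortex were 5.23 ± 1.56 (SE, adjusted p = 0.0144), 7.04 ± 1.69 (SE, adjusted p = 0.0117) and 4.59 ± 1.51 (SE, adjusted p = 0.0198). These calls rested on single libraries. Without YAP1-MAMLD1-dR3R1 replicate 1 that change was 1.73 (adjusted p = 0.136), and without YAP1-TFE3 replicate 1 that of YAP1-TFE3 was 2.82 (adjusted p = 0.101). Without naive replicate 1 none of the 3 passed (adjusted p = 0.0558, 0.0522 and 0.0801), and without naive replicate 2 YAP1-MAMLD1-dR3R1 and YAP1-TFE3 did not (adjusted p = 0.0506 and 0.0632). Without both libraries that held Xist and Ddx3y, the adjusted p was 0.0586 with YAP1-MAMLD1-dR3R1 and 0.0718 with YAP1-TFE3. In the annotation 309 exon bases of Spp1 are shared with the same-strand transcript Gm42793, so some reads may belong to it.

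Osteoclasts, the bone-resorbing relatives of macrophages, make osteopontin, and so do many tumour cells. A list of 8 osteoclast genes summed to 178, 123 and 105 CPM in YAP1-MAMLD1-dR3R1 tumours, 6684, 89.0 and 10206 CPM in YAP1-FAM118B tumours, 66.4, 59.0 and 82.5 CPM in YAP1-TFE3 tumours and 18.4, 17.7 and 25.7 CPM in naive cortex. Replicates 1 and 3 of YAP1-FAM118B, with the highest Spp1 of all libraries, stood far above the rest. In those libraries Acp5, the tartrate-resistant phosphatase, had 2056, 22.8 and 2745 CPM by replicate and Mmp9, a matrix protease, 2280.3, 23.3 and 3426 CPM. With YAP1-FAM118B, 7 of the 8 genes were called higher than in naive, with YAP1-MAMLD1-dR3R1 3 and with YAP1-TFE3 3, while Calcr was lower with YAP1-TFE3. In this order 21.3%, 34.4% and 40.6% of all tested genes were called higher, so the last 2 counts were near the background. The median log2 fold changes of the 8 osteoclast genes were 8.16, 2.93 and 2.06 in this order. The lowest naive mean among the 8 was 0.0140 CPM, and that gene was kept by the filter through the tumours alone, so it could only be higher. Dcstamp and Acp5 had naive means of 0.175 and 0.442 CPM, so the size of these medians leans on low naive levels. Fibroblast genes, 8 in the list, summed to 13964, 3319 and 18382 CPM in the YAP1-FAM118B libraries by replicate, again with replicate 2 the lowest, against 4093 to 5736 CPM in YAP1-MAMLD1-dR3R1 tumours, 893 to 2264 CPM in YAP1-TFE3 tumours and 136 to 211 CPM in naive cortex. The part of these cell types in the Spp1 level was not tested.

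Among the receptors of osteopontin, Cd44 rose with YAP1-MAMLD1-dR3R1, with YAP1-FAM118B and with YAP1-TFE3 by 5.26 (adjusted p = 4.19e-06), 4.79 (adjusted p = 1.51e-05) and 5.49 (adjusted p = 1.07e-06). The integrin subunit gene Itgb5 rose as well, by 3.88 (adjusted p = 1.75e-06), 2.44 (adjusted p = 1.75e-05) and 4.12 (adjusted p = 4.03e-07). Itgb3, another subunit that binds osteopontin, changed by 2.03 (adjusted p = 0.0346), 4.46 (adjusted p = 0.0027) and 1.0 (adjusted p = 0.237), the last not passing.

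Csf1 and Igf1 are growth factors. Csf1 encodes a ligand of CSF1R and had 721, 421 and 404 CPM in YAP1-MAMLD1-dR3R1 tumours, 349.8, 239.9 and 463 CPM in YAP1-FAM118B tumours, 205, 204 and 462 CPM in YAP1-TFE3 tumours and 25.3, 23.0 and 33.5 CPM in naive cortex. The lowest tumour library lay well above the highest naive one, and the tumour groups overlapped each other. It rose by 4.24 ± 0.43 (SE, adjusted p = 3.35e-05), 3.69 ± 0.42 (SE, adjusted p = 0.000172) and 3.41 ± 0.42 (SE, adjusted p = 5.94e-05), and without YAP1-TFE3 replicate 3, its highest library, by 2.76 (adjusted p = 0.000185) with YAP1-TFE3. The receptor gene Csf1r rose too, by 4.50 (adjusted p = 7.66e-05), 2.81 (adjusted p = 0.00216) and 2.92 (adjusted p = 0.000484). Il34, the other ligand of CSF1R, did not follow. It had 4.05, 9.05 and 5.11 CPM in YAP1-TFE3 tumours, against 65.3, 55.8 and 35.5 CPM in naive cortex, a change of -3.10 (adjusted p = 9.07e-05). With YAP1-MAMLD1-dR3R1 and YAP1-FAM118B the Il34 difference was 0.22 (adjusted p = 0.62) and -0.02 (adjusted p = 0.971). Counted within a library, Csf1 gave 0.615, 0.259 and 0.213 counts per Csf1r count in YAP1-MAMLD1-dR3R1 tumours, 0.678, 0.669 and 0.792 in YAP1-FAM118B tumours, 0.686, 0.790 and 0.457 in YAP1-TFE3 tumours and 0.348, 0.309 and 0.554 in naive cortex. The YAP1-FAM118B ratios lay above all naive ratios, and those of YAP1-MAMLD1-dR3R1 and YAP1-TFE3 overlapped them.

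Igf1 encodes insulin-like growth factor 1, which microglia supply during development and repair. It had 103, 91.8 and 72.7 CPM in YAP1-MAMLD1-dR3R1 tumours, 40.1, 14.8 and 33.0 CPM in YAP1-FAM118B tumours, 27.1, 8.34 and 52.8 CPM in YAP1-TFE3 tumours and 10.3, 10.5 and 18.7 CPM in naive cortex. Only the YAP1-MAMLD1-dR3R1 tumours cleared the naive range, and there the gene rose by 2.76 ± 0.60 (SE, adjusted p = 0.00289). The differences with YAP1-FAM118B, 1.15 ± 0.58 (SE, adjusted p = 0.156), and YAP1-TFE3, 1.16 ± 0.58 (SE, adjusted p = 0.0954), did not pass. YAP1-TFE3 replicate 2 was below all naive libraries, and without it the change was 1.35 (adjusted p = 0.0253) and passed. Igf1r, its receptor, passed in none of the 3 comparisons, with 0.53, 0.77 and 0.55 (adjusted p = 0.19, 0.109 and 0.167). Of the listed genes of its binding proteins, Igfbp2 and Igfbp3 rose with each fusion, and Igfbp4, Igfbp5 and Igfbp7 are not described here. Igfbp2 rose by 6.41 (adjusted p = 5.61e-05), 5.24 (adjusted p = 0.000363) and 2.93 (adjusted p = 0.00169), and Igfbp3 by 3.71 (adjusted p = 2.41e-05), 3.10 (adjusted p = 0.000149) and 5.21 (adjusted p = 2.96e-06) with YAP1-MAMLD1-dR3R1, with YAP1-FAM118B and with YAP1-TFE3. Between fusions, YAP1-TFE3 tumours had less Igfbp2 than YAP1-MAMLD1-dR3R1 tumours, -3.47 (adjusted p = 0.00191), and more Igfbp3, 1.5 (adjusted p = 0.00506).

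Cd9, a tetraspanin that organizes receptors in the membrane, is expressed by many cell types besides microglia. It had 340.1, 535 and 648 CPM in YAP1-MAMLD1-dR3R1 tumours, 136, 144 and 112 CPM in YAP1-FAM118B tumours, 246, 295 and 205 CPM in YAP1-TFE3 tumours and 67.2, 59.2 and 84.0 CPM in naive cortex. The 4 groups did not overlap. Cd9 rose by 2.86 ± 0.26 (SE, adjusted p = 1.95e-05), 0.90 ± 0.25 (SE, adjusted p = 0.0203) and 1.83 ± 0.25 (SE, adjusted p = 0.000125). The YAP1-FAM118B call was the least firm: it ended without naive replicate 1, naive replicate 2 or YAP1-FAM118B replicate 1, at adjusted p = 0.0618, 0.0762 and 0.0632, and without both libraries holding Xist and Ddx3y, at 0.71 (adjusted p = 0.129). The antisense transcript Gm26728 shares 218 exon bases with Cd9. Cd81, a related tetraspanin, rose by 1.29 (adjusted p = 0.00111) with YAP1-MAMLD1-dR3R1 and 0.90 (adjusted p = 0.00661) with YAP1-TFE3, and differed by 0.11 (adjusted p = 0.742) with YAP1-FAM118B.

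**Figure D2:**
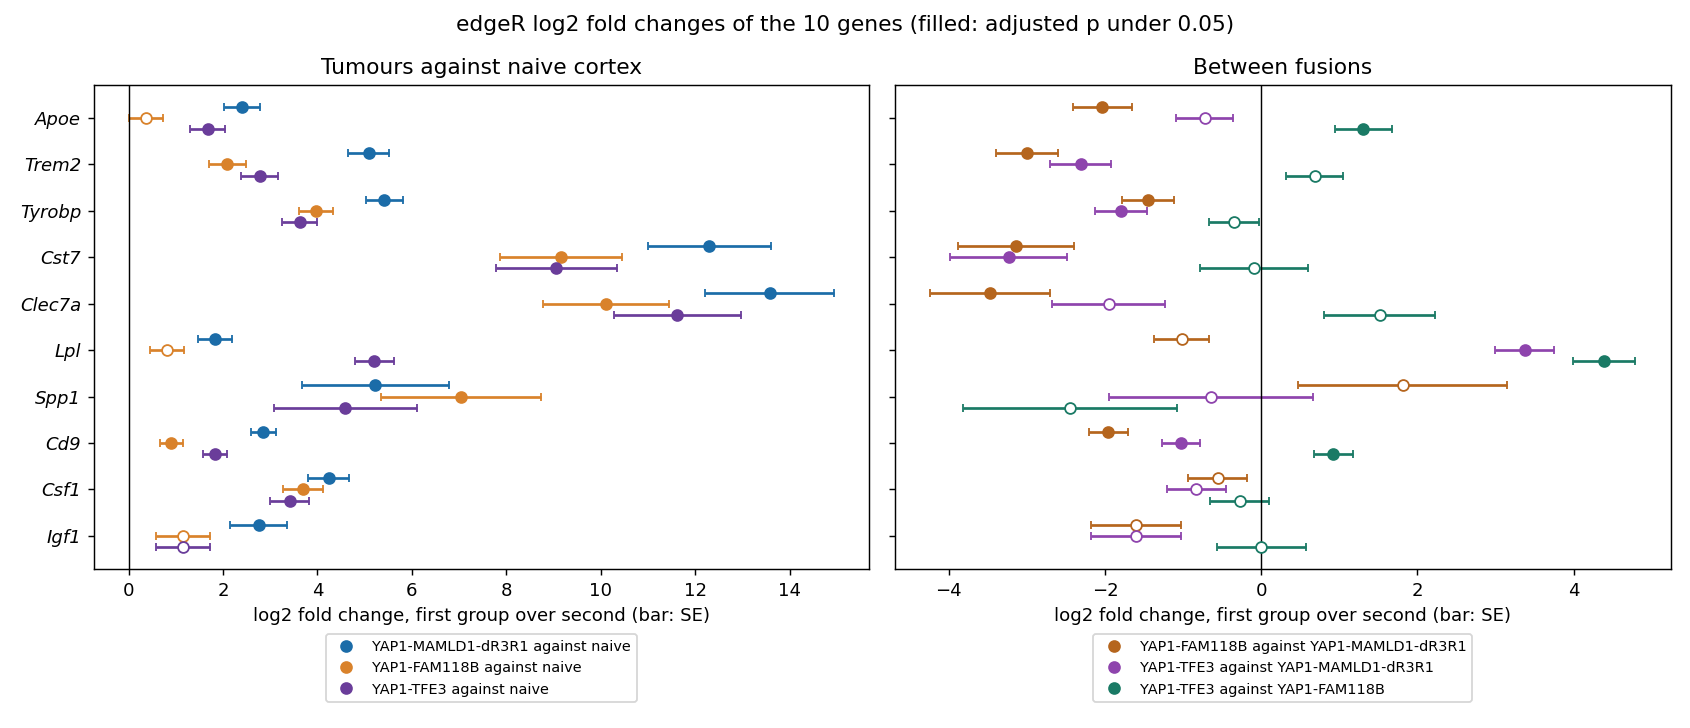
Log2 fold changes of the 10 genes with standard errors, each tumour group against naive cortex (left) and each pair of fusions (right); filled points have an adjusted p under 0.05. Against naive 10, 7 and 9 genes pass, Cst7 and Clec7a (1 naive count each) among them, with YAP1-MAMLD1-dR3R1, with YAP1-FAM118B and with YAP1-TFE3; between fusions Lpl is the only gene called higher with YAP1-TFE3 than with each of the others.

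Between fusions, the YAP1-FAM118B tumours had less of the microglial genes than the YAP1-MAMLD1-dR3R1 tumours. Of the 10 genes 6 were called lower and 0 higher, where 13.5% and 12.7% of all tested genes were. Trem2 differed by -3.0 ± 0.40 (SE, adjusted p = 0.00354), Cd9 by -1.95 ± 0.25 (SE, adjusted p = 0.0034) and Apoe by -2.03 ± 0.37 (SE, adjusted p = 0.00807). Clec7a differed by -3.47 ± 0.77 (SE, adjusted p = 0.0137), Cst7 by -3.14 ± 0.74 (SE, adjusted p = 0.0171) and Tyrobp by -1.45 ± 0.33 (SE, adjusted p = 0.0155). The calls of these last 3 genes depended on single libraries. Clec7a ended without YAP1-FAM118B replicate 1 (adjusted p = 0.0527) and Cst7 without that library or YAP1-MAMLD1-dR3R1 replicate 2 (adjusted p = 0.0631 and 0.0558). Tyrobp ended without YAP1-MAMLD1-dR3R1 replicate 2 or 3 (adjusted p = 0.0547 and 0.0513) and without both libraries holding Xist and Ddx3y (adjusted p = 0.0721). The libraries did not overlap for 7 of the 10, all lower with YAP1-FAM118B, where 25.0% of all genes did not overlap and were lower and 23.7% higher. The median of the 10 genes was -1.78, beside -0.05 over all tested genes. Without both libraries holding Xist and Ddx3y, 5 of the 10 genes were called, where 6.08% of all genes tested in that fit were. Of the members that did not pass, Csf1 differed by -0.55 ± 0.38 (SE, adjusted p = 0.29) and Igf1 by -1.60 ± 0.58 (SE, adjusted p = 0.0642). Without YAP1-MAMLD1-dR3R1 replicate 1 Lpl and Spp1 passed, at -1.27 (adjusted p = 0.025) and 5.31 (adjusted p = 0.0155), against -1.02 ± 0.35 (SE, adjusted p = 0.0561) and 1.81 ± 1.34 (SE, adjusted p = 0.328) with all libraries.

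YAP1-TFE3 tumours were lower than YAP1-MAMLD1-dR3R1 tumours in 4 of the 10 genes and higher in 1, where 16.9% and 22.6% of all tested genes were. The libraries did not overlap for 1 gene that was higher and 6 that were lower with YAP1-TFE3, where 27.0% and 21.1% of all genes were so. The median of the 10 was -1.32, beside -0.05 over all tested genes. Cst7 differed by -3.23 ± 0.75 (SE, adjusted p = 0.0071), Trem2 by -2.31 ± 0.39 (SE, adjusted p = 0.00126), Tyrobp by -1.79 ± 0.34 (SE, adjusted p = 0.00237) and Cd9 by -1.03 ± 0.25 (SE, adjusted p = 0.00822). Lpl went the other way and was 10.4-fold higher, a log2 change of 3.37 ± 0.38 (SE, adjusted p = 0.000134). Clec7a and Igf1 lay close to the threshold, with -1.95 ± 0.72 (SE, adjusted p = 0.0541) and -1.60 ± 0.58 (SE, adjusted p = 0.0503), and both passed under DESeq2, RLE, upper-quartile or library-size scaling and with no filter. Without YAP1-TFE3 replicate 3, the library with the highest myeloid level of its group, Clec7a, Igf1 and Csf1 passed at -3.03 (adjusted p = 0.01), -2.49 (adjusted p = 0.00944) and -1.46 (adjusted p = 0.013). Igf1 also passed without YAP1-TFE3 replicate 2 or YAP1-MAMLD1-dR3R1 replicate 3 (adjusted p = 0.0469 and 0.0423). Apoe, -0.72 ± 0.36 (SE, adjusted p = 0.134) with all libraries, passed without YAP1-TFE3 replicate 1 at -1.35 (adjusted p = 0.0162).

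Between YAP1-TFE3 and YAP1-FAM118B tumours, 3 of the 10 genes were called higher with YAP1-TFE3 and 0 lower, where 28.0% and 23.7% of all tested genes were, so the share was near the background. Libraries did not overlap for the same 3 genes, where 31.4% of all genes did not overlap and were higher and 26.9% lower. The median was 0.34, beside 0.08 over all tested genes. Lpl was 21.0-fold higher, at 4.39 ± 0.40 (SE, adjusted p = 3.31e-05). Apoe was higher by 1.31 ± 0.36 (SE, adjusted p = 0.0132) and Cd9 by 0.92 ± 0.24 (SE, adjusted p = 0.0103). The Apoe call ended without YAP1-TFE3 replicate 1 (adjusted p = 0.156) and in a fit of these groups only (adjusted p = 0.0511), and the Cd9 call without YAP1-TFE3 replicate 1 or 2 (adjusted p = 0.0727 and 0.145). Trem2, Tyrobp, Cst7, Clec7a, Spp1, Csf1 and Igf1 overlapped between these groups and did not pass. Without YAP1-TFE3 replicate 3 Tyrobp and Csf1 were lower at -1.0 (adjusted p = 0.0227) and -1.0 (adjusted p = 0.0463), and without YAP1-FAM118B replicate 2 Clec7a was higher at 2.30 (adjusted p = 0.0387). The Igf1 difference was 0.00 and turned negative under the other scalings, as given in the closing section.

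Because the myeloid level differed so widely, each library was also scaled to the geometric mean of its 10 pan-myeloid markers, and the test was repeated. On this scale the median over all tested genes moved to -5.48, -3.76 and -3.11 with YAP1-MAMLD1-dR3R1, with YAP1-FAM118B and with YAP1-TFE3 against naive, so most genes fell per myeloid marker. Changes below are read against that shift. Clec7a and Cst7, kept by the filter through the tumours alone, are described on this scale without a test against naive. The CPM of Clec7a per pan-myeloid CPM was 0.645, 0.830 and 0.554 in YAP1-MAMLD1-dR3R1 tumours, 0.189, 0.470 and 0.0474 in YAP1-FAM118B tumours, 0.521, 0.634 and 0.632 in YAP1-TFE3 tumours and 0, 0.00519 and 0 in naive cortex. That of Cst7 was 0.296, 0.378 and 0.178 in YAP1-MAMLD1-dR3R1 tumours, 0.0718, 0.282 and 0.0196 in YAP1-FAM118B tumours, 0.140, 0.142 and 0.0819 in YAP1-TFE3 tumours and 0, 0 and 0.00643 in naive cortex. Each tumour ratio of both genes lay above each naive one. Tyrobp did not pass on this scale, with -0.15 (adjusted p = 0.692), 0.22 (adjusted p = 0.57) and 0.06 (adjusted p = 0.882), while against 12 homeostatic markers it was 2.05 (adjusted p = 0.000351), 2.67 (adjusted p = 0.00162) and 1.92 (adjusted p = 0.00127).

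Trem2 was lower per myeloid marker with YAP1-FAM118B, at -1.61 (adjusted p = 0.00112), and with YAP1-TFE3, at -0.85 (adjusted p = 0.0495), and did not pass with YAP1-MAMLD1-dR3R1, at -0.50 (adjusted p = 0.218). The YAP1-TFE3 call ended without any of naive replicates 1, 2 and 3 or YAP1-TFE3 replicate 2, at adjusted p = 0.142, 0.105, 0.0572 and 0.108. It also ended with no filter (adjusted p = 0.077) and in a fit of these groups only (adjusted p = 0.238). With homeostatic microglial genes as the reference the sign of Trem2 turned, to 1.71 (adjusted p = 0.000189) with YAP1-MAMLD1-dR3R1, 0.68 (adjusted p = 0.0671) with YAP1-FAM118B and 1.05 (adjusted p = 0.0103) with YAP1-TFE3, so the direction holds per pan-myeloid marker only. Its ratio to the markers was 0.734, 0.905 and 0.700 in YAP1-MAMLD1-dR3R1 tumours, 0.363, 0.451 and 0.267 in YAP1-FAM118B tumours, 0.807, 0.565 and 0.466 in YAP1-TFE3 tumours and 1.26, 1.14 and 0.912 in naive cortex. Every tumour ratio lay below every naive ratio, by the widest margin in the YAP1-FAM118B tumours and only just in the highest YAP1-MAMLD1-dR3R1 tumour.

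Lpl was the gene whose direction per myeloid marker split the fusions. Its ratio was 13.7, 18.8 and 5.10 in YAP1-TFE3 tumours, 0.203, 0.350 and 0.194 in YAP1-MAMLD1-dR3R1 tumours, 0.527, 0.365 and 0.439 in YAP1-FAM118B tumours and 2.19, 3.95 and 3.99 in naive cortex. It was higher than naive with YAP1-TFE3, 1.89 (adjusted p = 0.00277), and lower with YAP1-MAMLD1-dR3R1, -3.76 (adjusted p = 8.07e-06), and YAP1-FAM118B, -2.93 (adjusted p = 9.49e-05). Apoe, Cd9 and Igf1 are all made in cortex by other cells too. On this scale Cd9 and Igf1 were lower than naive with all 3 fusions, and Apoe with YAP1-MAMLD1-dR3R1 and YAP1-FAM118B. Apoe changed by -3.07 (adjusted p = 0.00102), -3.33 (adjusted p = 0.000657) and -1.49 (adjusted p = 0.058), and without YAP1-TFE3 replicate 1 the last was -2.14 (adjusted p = 0.025). Cd9 changed by -2.78 (adjusted p = 0.00017), -2.83 (adjusted p = 0.000184) and -1.41 (adjusted p = 0.0202), the last with adjusted p = 0.0741 without naive replicate 3 and 0.0587 in a fit of these groups only. Against homeostatic markers the YAP1-TFE3 values of Apoe and Cd9 were positive, at 0.27 (adjusted p = 0.702) and 0.34 (adjusted p = 0.49). Igf1 changed by -2.77 (adjusted p = 0.000116), -2.64 (adjusted p = 0.000218) and -2.63 (adjusted p = 0.000261).

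Csf1 and Spp1 differed less from naive on this scale. Csf1 was lower with YAP1-MAMLD1-dR3R1, -1.24 (adjusted p = 0.0187), a call that ended without YAP1-MAMLD1-dR3R1 replicate 2 or 3 or naive replicate 3 (adjusted p = 0.0834, 0.0918 and 0.0862). With YAP1-FAM118B and YAP1-TFE3 the Csf1 values were -0.08 (adjusted p = 0.874) and -0.20 (adjusted p = 0.686). Against homeostatic markers Csf1 turned positive with all 3 fusions, at 0.99 (adjusted p = 0.086), 2.37 (adjusted p = 0.00391) and 1.66 (adjusted p = 0.0135). Spp1 was higher with YAP1-FAM118B, 3.23 (adjusted p = 0.0344), which ended without naive replicate 1 or 2 or YAP1-FAM118B replicate 1 or 3 (adjusted p = 0.0987, 0.0906, 0.0544 and 0.0683). With YAP1-MAMLD1-dR3R1 and YAP1-TFE3 it was -0.03 (adjusted p = 0.983) and 1.43 (adjusted p = 0.296), and without YAP1-MAMLD1-dR3R1 replicate 1 the first was -4.08 (adjusted p = 0.00253). In all, 2 genes were higher and 5 lower with YAP1-MAMLD1-dR3R1, where 1.15% and 92.1% of all tested genes were; 3 were higher and 5 lower with YAP1-FAM118B, where 1.73% and 89.0% were; and 3 were higher and 3 lower with YAP1-TFE3, where 3.88% and 82.0% were. The genes called higher include Cst7 and Clec7a in each comparison. The filter kept these 2 genes through the tumours alone, so their calls cannot be weighed against the shares of all genes. Beside them only Spp1 was called higher with YAP1-FAM118B, only Lpl with YAP1-TFE3 and no member with YAP1-MAMLD1-dR3R1. The medians of the 10 genes, Cst7 and Clec7a among them, were -0.87, -0.84 and -0.07.

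**Figure D3:**
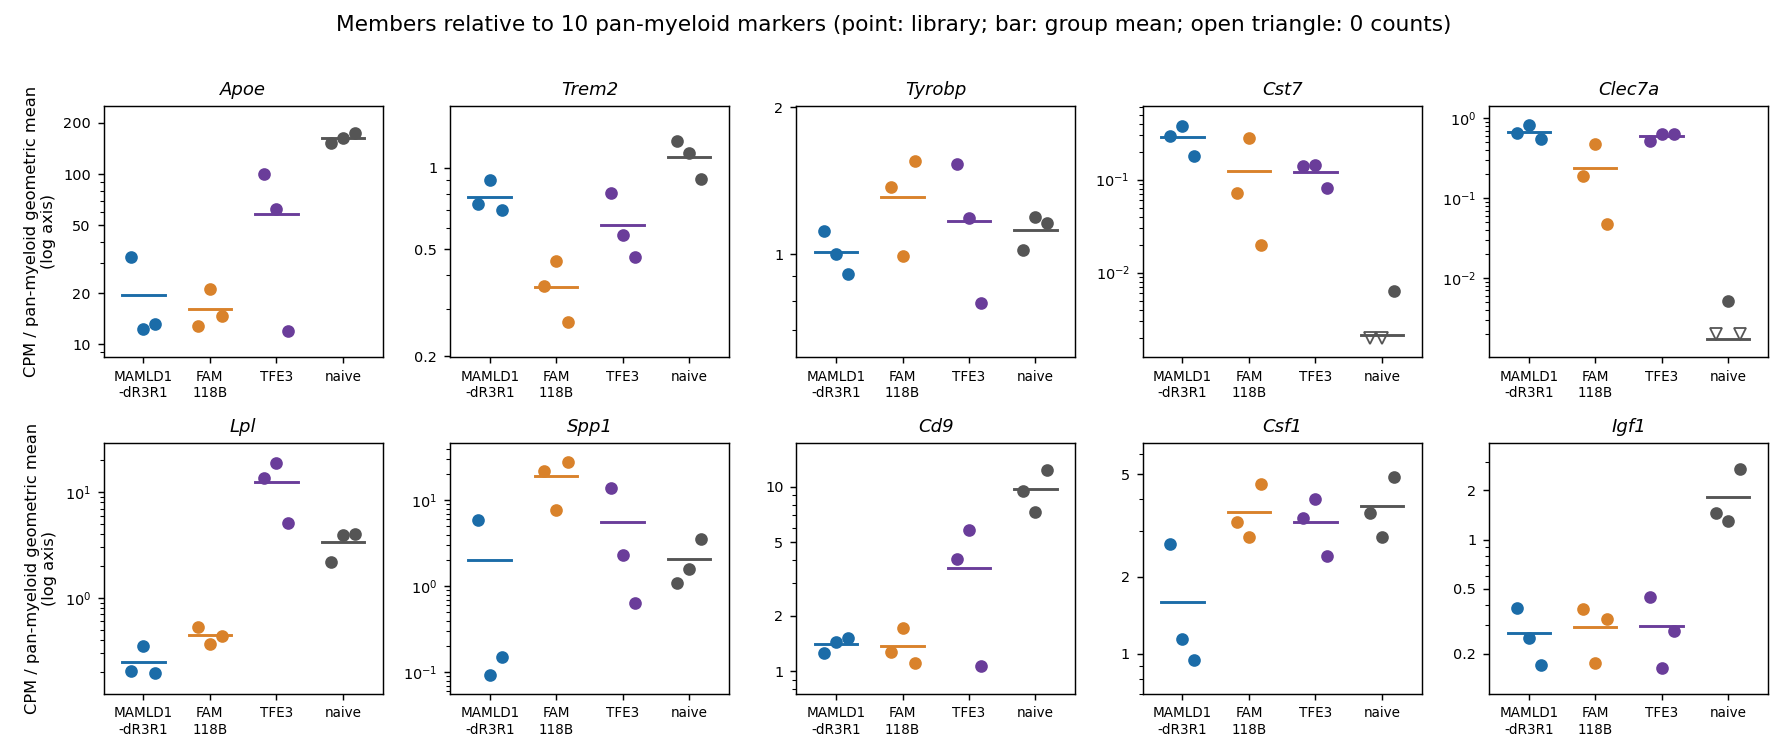
Each gene's CPM divided by the geometric mean CPM of the 10 pan-myeloid markers of the same library (log axes), with a bar at each group mean and open triangles at an arbitrary height for 0 counts. Tyrobp lies near 1 in all groups, Cst7 and Clec7a are above naive in every tumour, and Lpl is above naive in the YAP1-TFE3 tumours alone.

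Of the 6 genes lower with YAP1-FAM118B than with YAP1-MAMLD1-dR3R1, Trem2 and Clec7a were also called lower per myeloid marker; of the 4 lower with YAP1-TFE3, none was. Against YAP1-MAMLD1-dR3R1 tumours, YAP1-FAM118B tumours had 2 genes called higher and 2 lower, where 75.7% and 0.495% of all tested genes were and the median of all genes was 1.78. Trem2 differed by -1.11 (adjusted p = 0.0168) and Clec7a by -1.52 (adjusted p = 0.0397), while Spp1 was higher by 3.26 (adjusted p = 0.04) and Csf1 by 1.17 (adjusted p = 0.0327). Each of these 4 calls ended on the loss of 1 or another library. Trem2 ended without YAP1-MAMLD1-dR3R1 replicate 2 or YAP1-FAM118B replicate 3 (adjusted p = 0.0701 and 0.0803). Spp1 and Csf1 each ended without YAP1-MAMLD1-dR3R1 replicate 2 or 3 or YAP1-FAM118B replicate 1 or 3, and Clec7a without YAP1-MAMLD1-dR3R1 replicate 1 or 2 or YAP1-FAM118B replicate 1 or 3. In a fit of these groups only, Clec7a and Spp1 did not pass (adjusted p = 0.0791 and 0.0843). With any 1 library left out, the log2 differences were 2.69 to 7.31 for Spp1, 0.90 to 1.77 for Csf1 and -2.51 to -1.04 for Clec7a. YAP1-TFE3 tumours had Lpl, 5.65 (adjusted p = 2.72e-05), and Cd9, 1.37 (adjusted p = 0.0274), higher than YAP1-MAMLD1-dR3R1 tumours and none lower, where 72.0% and 1.06% of all genes were and the median was 2.17. The Cd9 call ended without any of YAP1-MAMLD1-dR3R1 replicates 1, 2 and 3 or YAP1-TFE3 replicates 1 and 2, with adjusted p up to 0.147. Against YAP1-FAM118B tumours Lpl alone was higher, 4.82 (adjusted p = 0.000218), where 15.1% of all genes were called higher and 8.50% lower and the median was 0.44. Lpl kept its calls against both other fusions with any 1 library left out, at 5.24 to 6.03 and 4.41 to 5.19.

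Genes of the resting microglial state did not fall in bulk tissue. Of 12 homeostatic markers 12 rose with YAP1-MAMLD1-dR3R1, 6 with YAP1-FAM118B and 9 with YAP1-TFE3 against naive, where 34.4%, 21.3% and 40.6% of all tested genes did. None of the 12 fell. The median log2 fold changes were 3.46, 1.32 and 1.90, each below the median of the pan-myeloid list, 5.61, 3.65 and 3.76. Between fusions, 11 of the 12 were lower with YAP1-FAM118B than with YAP1-MAMLD1-dR3R1, and 8 were lower with YAP1-TFE3, where 13.5% and 16.9% of all tested genes were. Tmem119, a marker of microglia over blood-derived macrophages, had 271, 509.8 and 503 CPM in YAP1-MAMLD1-dR3R1 tumours, 124, 102 and 135 CPM in YAP1-FAM118B tumours, 48.1, 58.6 and 178 CPM in YAP1-TFE3 tumours and 18.2, 19.7 and 17.8 CPM in naive cortex. Monocyte and macrophage genes rose as well, with 10, 10 and 8 of 12 called higher and Cd163 lower with YAP1-TFE3. Their median log2 fold changes were 7.42, 5.56 and 3.99, and their sums were 1903 to 4125 CPM in YAP1-MAMLD1-dR3R1 tumours, 462 to 1707 CPM in YAP1-FAM118B tumours, 1363 to 1762 CPM in YAP1-TFE3 tumours and 29.0 to 44.8 CPM in naive cortex. Of these genes 1, 2 and 3 had 0 counts in naive replicates 1, 2 and 3. A gene kept by the filter through the tumours alone could only be called higher, so these calls and medians lean on low naive levels. Lyz2, lysozyme of macrophages, changed by 7.75 (adjusted p = 2.04e-05), 6.31 (adjusted p = 0.000121) and 7.5 (adjusted p = 1.27e-05). Markers of resident microglia and of blood-derived macrophages were thus both above cortex, and the share of either in the 10 genes was not tested.

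Other genes of the disease-associated programme gave a wider view. Of 28 further genes 26 rose and 2 fell with YAP1-MAMLD1-dR3R1, 21 rose and 0 fell with YAP1-FAM118B, and 25 rose and 0 fell with YAP1-TFE3. The genes that fell were Cadm1, an adhesion molecule, with a change of -1.44 (adjusted p = 0.00279), and Ank, a pyrophosphate transporter, with -0.66 (adjusted p = 0.00731). Over all tested genes 34.4%, 21.3% and 40.6% were called higher in the same order of tumours. The median log2 fold changes of the list were 4.71, 3.23 and 4.35. Its summed level was highest in the YAP1-TFE3 tumours, at 32299 to 38288 CPM, although their pan-myeloid level was not. It was 21028 to 27336 CPM in YAP1-MAMLD1-dR3R1 tumours, 8047 to 9201 CPM in YAP1-FAM118B tumours and 3611 to 3836 CPM in naive cortex. A sum follows the most abundant genes of its list. The median log2 difference of the 28 genes between YAP1-TFE3 and YAP1-MAMLD1-dR3R1 tumours was only -0.02, beside -0.05 over all tested genes.

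Several genes of that list were described further for the YAP1-TFE3 tumours. Ctsl, a lysosomal cysteine protease, rose by 5.32 (adjusted p = 5.01e-07) and Ctsd, the aspartic protease cathepsin D, by 4.37 (adjusted p = 9.80e-07) over naive. Lgals3, the galectin that binds damaged lysosomes, had 1939, 1194 and 1847 CPM in YAP1-TFE3 tumours, against 2.18, 1.09 and 1.36 CPM in naive cortex. Gpnmb, a membrane glycoprotein of lysosomes and melanosomes named here after its values were seen, had 6069, 8766 and 9479 CPM in YAP1-TFE3 tumours, 197, 90.9 and 173 CPM in YAP1-MAMLD1-dR3R1 tumours, 15.2, 28.3 and 7.15 CPM in YAP1-FAM118B tumours and 12.1, 5.15 and 3.96 CPM in naive cortex. Against YAP1-MAMLD1-dR3R1 tumours, Gpnmb, Lgals3 and Ctsl differed by 5.72 (adjusted p = 0.000157), 3.81 (adjusted p = 0.000107) and 3.28 (adjusted p = 1.54e-05). Of the 28 genes 8 were higher and 8 lower with YAP1-TFE3 than with YAP1-MAMLD1-dR3R1, and 14 were higher and 0 lower than with YAP1-FAM118B. Of all tested genes 22.6% were higher and 16.9% lower in the first comparison, and 28.0% and 23.7% in the second. With YAP1-FAM118B 2 of the 28 were higher and 17 lower than with YAP1-MAMLD1-dR3R1, where 12.7% and 13.5% of all tested genes were.

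**Figure D4:**
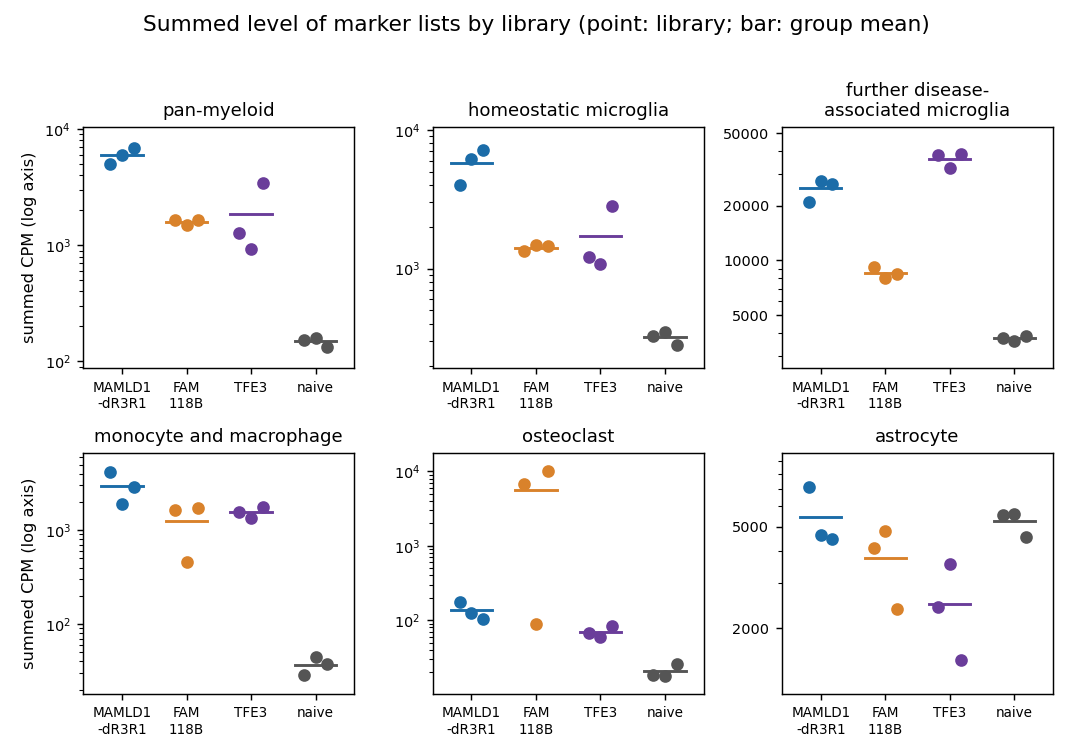
Summed CPM of 6 marker lists in each library (log axes), with a bar at each group mean. The pan-myeloid sum is highest in YAP1-MAMLD1-dR3R1 tumours, the sum of the further disease-associated genes in YAP1-TFE3 tumours, and the osteoclast sum in 2 of the 3 YAP1-FAM118B tumours. A sum follows the most abundant genes of its list.

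Levels can be compared between genes once divided by the length of their exons. On CPM per kilobase of annotated exon, Apoe led in YAP1-MAMLD1-dR3R1 tumours at 2963 ± 1037 (SD, n = 3), in YAP1-TFE3 tumours at 1793 ± 921 and in naive cortex at 561 ± 51.2. In YAP1-FAM118B tumours the mean level per kilobase was 1186 ± 702 for Spp1 and 725 ± 96.2 for Apoe, a difference within the Spp1 spread. Tyrobp came to 528 ± 67.7 CPM per kilobase in YAP1-MAMLD1-dR3R1 tumours, 194 ± 59.7 in YAP1-FAM118B tumours, 152 ± 70.0 in YAP1-TFE3 tumours and 12.4 ± 1.80 in naive cortex. Trem2 lay below its adaptor on this scale, at 55.9 ± 14.2, 7.0 ± 1.33, 11.2 ± 6.25 and 1.64 ± 0.329 CPM per kilobase in the same order of groups. The exon length joins all annotated isoforms, so the level of genes with long alternative exons is understated.

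Across the 12 libraries some of the genes kept closer step than others. After centring log2 CPM on the mean of each gene, Tyrobp and Csf1 differed by a mean of 0.43 per library, Apoe and Cd9 by 0.45 and Trem2 and Tyrobp by 0.60. Clec7a and Spp1 were the least alike, at 3.20. Over all genes with a mean of at least 5 CPM, the closest profiles to Tyrobp were those of Cyba, at 0.14, and Laptm5, at 0.20, where the median gene was at 1.71. Trem2 was closest to Hvcn1 and Cd37, both at 0.24. Cst7 was closest to Clec7a, at 0.69, and Cd300lf, at 0.71, while Clec7a was closest to Cxcl13, at 0.63. Lpl was closest to Lrrc32, at 0.34, and Morc4, at 0.41. Spp1 had no close match, its nearest being F13a1, at 1.01, and Col12a1, at 1.11. Csf1 was closest to Emilin2 and Tgfbr2, at 0.26 and 0.28, Cd9 to Cmtm6 and Arrdc4, both at 0.23, Igf1 to Rcsd1 and Tmem86a, at 0.39 and 0.40, and Apoe to Akap12 and Srebf1, at 0.29 and 0.32. The libraries share their groups, so these distances are descriptions.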

How the data were processed

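RNA of 12 mouse libraries was read from the files as whole-number counts per gene symbol. The authors deposited these counts unscaled, 1 file per library; HTSeq and build mm10 are named in the submitters' processing notes. Aligner, annotation, strand setting and versions were not given in the sources used here; reads of overlapping genes may be mixed. The labels' extraction protocol speaks of cell cultures and the design text of frozen tumours.

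Of 24421 symbols, 16364 passed filterByExpr (minimum count 10), among them the 10 members. edgeR 4.0.16 (R 4.3.3, limma 3.58.1) fitted a quasi-likelihood model to all libraries with TMM factors and tested 6 contrasts with Benjamini-Hochberg adjustment at 0.05. CPM use the TMM-scaled library sizes. The relative fit replaced these by the geometric mean of 10 pan-myeloid markers, with 0.5 added to each count. The test was checked first on simulated counts. A count of 3 equals 0.117 to 0.145 CPM per library, which with intervals covers counting error only.

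Replicate numbers of the labels did not pair the libraries: of 18 same-number pairs, 4 had a correlation of deviations over 0.1 (range -0.11 to 0.32). Members and the 16 gene lists were chosen with earlier results of these data known. Named were all members, of each other list up to 4 genes per tumour group by adjusted p and up to 2 against the majority, all receptors and partners, and the 2 genes with the closest profile to each member; Gpnmb, Syk and Pik3r1 were named after their values were seen. Of 8 pan-leukocyte markers 8, 7 and 7 rose over naive with YAP1-MAMLD1-dR3R1, with YAP1-FAM118B and with YAP1-TFE3. Alternatives were DESeq2 1.42.0, other scalings, no filter, a robust fit, only the groups compared, a replicate block, a myeloid covariate, other reference markers and each library left out.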

Additional observations from a re-analysis of the deposited data

How the results depend on the processing

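Of the comparisons of members with other settings, directions against naive held under DESeq2, RLE, upper-quartile and library-size scaling, no filter and a robust fit. On the CPM scale 846 values kept direction and side of the threshold, 33 lost their call, 30 gained one and 21 changed sign; per myeloid marker these were 326, 52, 6 and 23. The count of members called for YAP1-TFE3 against YAP1-MAMLD1-dR3R1, 5 as reported, was 8 with DESeq2, which called 47.9% of all genes. With the pan-myeloid level as a covariate over the tumours alone, it was 1, where 15.8% of all genes were called. For YAP1-FAM118B against YAP1-MAMLD1-dR3R1 it was 0, where edgeR called 0 genes of the whole table and 2376 had an unadjusted p under 0.05. The pan-myeloid level of YAP1-MAMLD1-dR3R1 tumours, 270 to 425 CPM, overlapped neither YAP1-FAM118B, 84.4 to 107 CPM, nor YAP1-TFE3, 50.7 to 192 CPM. In this fit the covariate and the fusion can therefore hardly be told apart. Per myeloid marker, YAP1-TFE3 against YAP1-MAMLD1-dR3R1 gave 1 with pan-leukocyte reference markers or only the groups compared, and YAP1-FAM118B against naive 5 with homeostatic reference markers. With 1 library left out, counts ran from 5 to 8 for YAP1-TFE3 against YAP1-MAMLD1-dR3R1 and 1 to 5 against YAP1-FAM118B, and per myeloid marker from 0 to 5 for YAP1-FAM118B against YAP1-MAMLD1-dR3R1, 1 to 4 for YAP1-TFE3 against YAP1-MAMLD1-dR3R1 and 1 to 4 for YAP1-TFE3 against YAP1-FAM118B. The cause of these shifts was not tested.

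With the replicate number as a block, 10, 7 and 9 members were called against naive with YAP1-MAMLD1-dR3R1, with YAP1-FAM118B and with YAP1-TFE3, 7 for YAP1-FAM118B against YAP1-MAMLD1-dR3R1, 6 for YAP1-TFE3 against YAP1-MAMLD1-dR3R1 and 3 for YAP1-TFE3 against YAP1-FAM118B, where 62.2%, 28.8%, 69.2%, 25.6%, 39.1% and 50.2% of all genes were called; per myeloid marker the block gave 1 for YAP1-TFE3 against YAP1-MAMLD1-dR3R1. Signs that changed with the block were those of Igf1 (-0.13) and Cst7 (0.30) for YAP1-TFE3 against YAP1-FAM118B and of Spp1 (0.057) for YAP1-TFE3 against YAP1-MAMLD1-dR3R1.

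Igf1 for YAP1-TFE3 against YAP1-FAM118B, 0.00 as reported, was -0.12 with DESeq2, RLE and upper-quartile scaling, -0.23 with library size, -0.24 with no filter, -0.014 with the covariate, -0.094 with only the groups compared, -0.32 without both libraries holding Xist and Ddx3y, and -0.99 to 0.30 with 1 library left out. In the same comparison Cst7 was 1.11 without those 2 libraries and -0.69 to 1.11 with 1 left out, and Trem2 -0.065 to 0.77. Spp1 for YAP1-TFE3 against YAP1-MAMLD1-dR3R1 ran from -2.39 to 2.86. The covariate gave -0.40 for Spp1 and 0.30 for Csf1 with YAP1-FAM118B, and 0.026 for Csf1 with YAP1-TFE3, against YAP1-MAMLD1-dR3R1.

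Against naive per myeloid marker, pan-leukocyte reference markers gave Trem2 0.091, Tyrobp 0.44 and Spp1 0.62 with YAP1-MAMLD1-dR3R1 and Csf1 0.46 with YAP1-FAM118B. Homeostatic reference markers gave Trem2 1.71, Tyrobp 2.05, Spp1 2.26 and Csf1 0.99 with YAP1-MAMLD1-dR3R1, Trem2 0.68 and Csf1 2.37 with YAP1-FAM118B, and Apoe 0.27, Trem2 1.05, Cd9 0.34 and Csf1 1.66 with YAP1-TFE3. Leaving out 1 library gave Spp1 -4.08 to 0.61 with YAP1-MAMLD1-dR3R1, Csf1 -0.30 to 0.16 with YAP1-FAM118B, and Tyrobp -0.18 to 0.28, Csf1 -0.38 to 0.034 and Spp1 -0.49 to 2.07 with YAP1-TFE3.

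Scaling moved the split of calls over all genes. For YAP1-FAM118B against naive 3479 were higher and 1382 lower, and with DESeq2 3783 and 2898. For YAP1-TFE3 against YAP1-MAMLD1-dR3R1 3695 were higher and 2761 lower, with upper-quartile scaling 3031 and 3599, with library size 2803 and 3866, and with no filter 2787 and 3441. For YAP1-TFE3 against YAP1-FAM118B 4582 were higher and 3878 lower, with library size 3386 and 4812, and with no filter 3343 and 4605.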

Other observations

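Lymphoid and dendritic cell markers moved unevenly through the tumours. Genes of T cells, 7 in the files, summed to 18.7, 146 and 108 CPM in YAP1-MAMLD1-dR3R1 tumours, 23.9, 20.5 and 15.6 CPM in YAP1-FAM118B tumours, 5.16, 5.81 and 50.8 CPM in YAP1-TFE3 tumours and 5.34, 6.79 and 2.33 CPM in naive cortex. YAP1-MAMLD1-dR3R1 replicates 2 and 3 and YAP1-TFE3 replicate 3 were the highest, and the same 3 libraries led the 8 dendritic cell genes, whose sums were 20.0, 79.2 and 95.6 CPM, 18.3, 12.1 and 16.7 CPM, 15.2, 15.0 and 87.5 CPM and 14.2, 12.8 and 15.0 CPM in the same order of groups. Against naive, 6 T cell genes passed with YAP1-MAMLD1-dR3R1, 0 with YAP1-FAM118B and 5 with YAP1-TFE3, all higher, and 5, 0 and 5 dendritic cell genes. Of all tested genes 34.4%, 21.3% and 40.6% were called higher. Cd3d and Xcr1 had 0 CPM in naive cortex and Cd3g a mean of 0.0147 CPM. The filter kept these genes through the tumours alone, so they could only be higher there. In YAP1-TFE3 replicates 1 and 2 the T cell sums lay within the naive range, so the T cell level of that group rested on replicate 3. The naive sums were mostly Cd4 and Lck, with means of 3.07 and 1.52 CPM. Those of YAP1-FAM118B tumours were mostly Cd4, with a mean of 15.4 CPM, beside 0.787 for Cd3g, 0.362 for Cd3d and 0.572 for Cd2. In these groups the sums therefore say little of the other T cell genes. The median log2 fold changes were 7.07, 2.95 and 4.57 for T cell genes and 4.16, 2.06 and 3.32 for dendritic cell genes, beside 0.06, -0.05 and 0.23 over all tested genes. Most genes of these 2 lists were barely detected in naive cortex, so the size of these medians leans on very low naive levels. Neutrophil genes stayed low, with sums of 1.37 to 6.19 CPM, 1.06 to 4.39 CPM, 2.12 to 5.45 CPM and 0.528 to 1.63 CPM, and 1 of the 3 tested, Cxcr2, was higher with each fusion. Cxcr2 had a naive mean of 0.0137 CPM and was also kept by the filter through the tumours alone.

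Of the cells native to cortex, neuronal genes (10) fell with YAP1-MAMLD1-dR3R1 in 6 cases, with YAP1-FAM118B in 1 and with YAP1-TFE3 in 9, and myelin genes (8) in 4, 2 and 8. Neuronal sums were 546 to 1868 CPM, 5682 to 7783 CPM, 105 to 1244 CPM and, in naive cortex, 8454 to 13816 CPM. Endothelial genes (8) rose in 7, 1 and 4 cases, fibroblast genes (8) in 5, 4 and 2. Of 10 astrocyte genes 1 rose and 2 fell with YAP1-MAMLD1-dR3R1, 0 rose and 1 fell with YAP1-FAM118B, and 3 rose and 6 fell with YAP1-TFE3. Of all tested genes 34.4%, 21.3% and 40.6% were called higher and 28.8%, 8.45% and 30.0% lower. Endothelial genes with YAP1-FAM118B and YAP1-TFE3 and fibroblast genes with YAP1-TFE3 rose at shares near or below these. So did astrocyte genes with all 3 fusions. Neuronal genes fell with YAP1-FAM118B at a share near that of all genes.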
